A study of Mus musculus with 199 samples.

Results

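Chromosome 8 of mouse embryonic stem cells was followed through the calls of 199 multiplex-GAM libraries, all of which had failed quality control. All windows of 40 kb that the deposited table places on chromosome 8 were taken, which gave 3294 windows of 61816 on the 19 autosomes and of 68162 rows in all. In mm9 coordinates the chromosome spans 131738871 bases. The rule that picks the windows uses their chromosome alone and no call.

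Chromosome 8 is one of the chromosomes that mouse embryonic stem cells most often gain in culture, and cells with an extra copy tend to outgrow the others. In genome architecture mapping (GAM), thin slices of frozen cells are cut, the slices of nuclei (nuclear profiles) are cut out with a laser, and the DNA in them is amplified for sequencing. A locus is called in a library when a slice passed through it and its DNA survived amplification. Loci that lie close together in the nucleus fall into the same slices, so the share of libraries that hold both (their co-segregation) falls with distance along a chromosome. A chromosome occupies its own territory, so a slice holds stretches of some chromosomes and little or nothing of others.

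The nuclear profiles came from 46C cells, a line with GFP knocked into the Sox1 gene. Sections were 220 nm thick and in 186 libraries the label gives 4 nuclear profiles per cap (4NP). The rest were 11 water controls and 2 human genomic DNA controls of 5 ng. The 11 experiments tested how sections were handled. In the stain experiments, profiles carried propidium iodide (PI) at 10 µg/ml, with or without freezing, or eosin at 0.5% in water or in ethanol. Others carried crystal violet at 1% or no stain in an experiment titled cresyl violet test, or were titled SYBR Gold stained or unstained. In the SYBR Gold test, the protocols of the libraries titled unstained describe staining and those of the libraries titled stained do not, and the titles were followed. In the proteinase K experiment, titled volumes were 1 µl in libraries labelled csc and 1, 2, 3, 4 or 8 µl in libraries labelled mdc. The PI and eosin experiments also held 1 unstained library each. The full collection carried cresyl violet at 1%, and smaller experiments changed freezing, PCR cycle number (20, 23 or 25), kit size or reagent volumes. Outside the experiment on cycle number, the labels give 25 PCR cycles for all libraries. How many nuclei a cap held is not recorded in the calls, and all profiles came from a single cell line.

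The number of calls set the precision of each library. Chromosome 8 had a median of 40.5 called windows in a 4NP library, with a range from 0 to 1077, and the other autosomes had a median of 1520, with a range from 1 to 16997. A mean of 5.02% of chromosome 8 windows was called (SD 7.05, n = 186), with a median of 1.23%, against 4.76% ± 5.39 of the windows of the other autosomes. Ratios were formed in the 143 libraries with at least 200 calls on the other autosomes. In the other 43 libraries chromosome 8 had a median of 1 call. Of the water controls, 9 had 0 to 17 calls on chromosome 8 and the human DNA controls had 0 and 1. The remaining pair had many calls, yet few of them on chromosome 8. Replicate 4 of the full collection water controls called 3.37% of chromosome 8 (Wilson 95% interval 2.81% to 4.04%) and 23.7% of the other autosomes, and chromosome 8 ranked 19 of 19 there. The water control of the SYBR Gold test titled unstained called 7.10% (6.28% to 8.03%) against 21.2%. Intervals cover counting error alone, and neighbouring windows are not independent.

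The windows of chromosome 8 that were called most often lay in a pair of nearby stretches, the latter ending at an assembly gap, in sequence that occurs again elsewhere. They are shown because they carry the highest values on the chromosome. The window at chr8:19920001-19960000 was called in 57 of 186 libraries (30.6%, Wilson 95% interval 24.5% to 37.6%), from 21 of the 28 title groups of 4NP libraries. The window after it was called in 48 libraries, the window at chr8:19720001-19760000 in 35, that at chr8:20000001-20040000 in 35 and that at chr8:19760001-19800000 in 33. The median window of chromosome 8 was called in 9. The most called window overlaps the genes Gm15319, 2610005L07Rik, AC152164.1 and Gm17279 of the GENCODE M1 annotation, of which 1 is protein-coding. Below are the 160 bases at the centre of the most called window and the best ungapped match to them elsewhere on chromosome 8, both on the plus strand of mm9. Capitals mark the bases in which the match differs.
chr8:19939921-19940080: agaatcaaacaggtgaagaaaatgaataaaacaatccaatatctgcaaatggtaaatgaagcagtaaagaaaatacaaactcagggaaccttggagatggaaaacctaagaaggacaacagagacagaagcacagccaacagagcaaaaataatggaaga
chr8:72012286-72012445: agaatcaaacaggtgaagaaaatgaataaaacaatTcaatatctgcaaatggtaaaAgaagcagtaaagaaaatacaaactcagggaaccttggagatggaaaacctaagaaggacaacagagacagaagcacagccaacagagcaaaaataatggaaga
The 2 stretches differ at 2 of 160 bases. The window that holds the match was called in 13 libraries. The match covers these 160 bases alone, and the 2 whole windows were not compared.

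The centre of the next most called window is shown in the same way, with its best match elsewhere on the chromosome.
chr8:19979921-19980080: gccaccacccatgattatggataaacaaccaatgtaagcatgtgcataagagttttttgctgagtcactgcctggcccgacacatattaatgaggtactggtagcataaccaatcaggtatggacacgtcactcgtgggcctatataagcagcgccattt
chr8:124012051-124012210: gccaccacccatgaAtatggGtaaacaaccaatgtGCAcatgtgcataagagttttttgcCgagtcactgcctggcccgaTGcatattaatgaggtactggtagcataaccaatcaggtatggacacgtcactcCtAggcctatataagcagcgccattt
They differ at 10 bases, and the window of the match was called in 14 libraries. In the most called window, 91% of 32-base words sampled at every 100th base occurred more than once in the assembly on either strand, and in the next window 86.2% did. Words that occurred more than 10 times made up 16% and 9%. The 9 windows from chr8:19680001 to 20040000 held 290 of the 30772 calls on chromosome 8, or 0.942%. Of the 186 libraries, 69 had a call among them. The 57 libraries with the most called window all had at least 200 calls on the other autosomes. Both water controls with many calls also held the 2 most called windows, and none of the other water controls did. Across the chromosome, the 36 windows with at least 75% repeated words had a higher mean but a lower median than the 749 windows with under 5%. The former had a mean of 12.8 libraries, a median of 7.5 and a range from 0 to 57. The latter had a mean of 10.1, a median of 10 and a range from 0 to 24. In the water controls the means were 0.5 and 0.119 of 11 controls per window. Whether reads of repeated sequence were placed wrongly was not tested. Among windows with under 25% repeated words, the most called were those over N4bp1 at chr8:89360001-89400000 (24 libraries), Plcg2 (23) and Mtus1 (22). Plcg2 encodes a phospholipase C of immune receptor signalling. Mtus1 encodes a microtubule-associated protein.

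At the other end, 176 windows of chromosome 8 (5.34%) were called in no 4NP library, against 3.78% of the windows of the other autosomes. Most of them hold undetermined bases of the assembly. The longest such stretch was chr8:1-3040000 at the centromeric end (76 windows, 98.7% undetermined bases), followed by chr8:20040001-22000000 (49 windows) and chr8:56240001-57880000 (41 windows), both undetermined throughout. The annotation places no gene in these stretches. Of the 176 windows, 6 had at most 50% undetermined bases.

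The main question was whether chromosome 8 was recovered more often than other autosomes. Relative coverage was the percent of chromosome 8 windows called in a library divided by the percent of the windows of the other 18 autosomes. Its mean was 1.026 ± 0.879 (SD, n = 143 libraries), and the median was 0.836. Chromosome 8 was above 1 in 57 libraries and below it in 86. The mean did not differ from 1 in a two-sided sign-flip permutation test over libraries (100000 resamples, p = 0.731, adjusted p = 0.846 over 19 autosomes), and its 95% interval ran from 0.882 to 1.17. A call records presence in a library and not the number of copies, and the ratio that an extra copy would give was not tested. The calls give no karyotype, and whether any of the cells had gained the chromosome was not tested. Over the 19 autosomes 1 passed the test (5.26%), and chromosome 8 was not that one. Chromosome 11 was the highest autosome, with a mean of 1.22 (adjusted p = 0.00665), and chromosome 7 the lowest, with 0.908. With a minimum of 600 calls, or with the coverage expected from GC content, 0 of the 19 autosomes passed. By its mean, chromosome 8 ranked 8 of 19. With calls pooled over the 186 libraries its ratio was 1.056 (jackknife SE 0.0724).

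**Figure D1:**
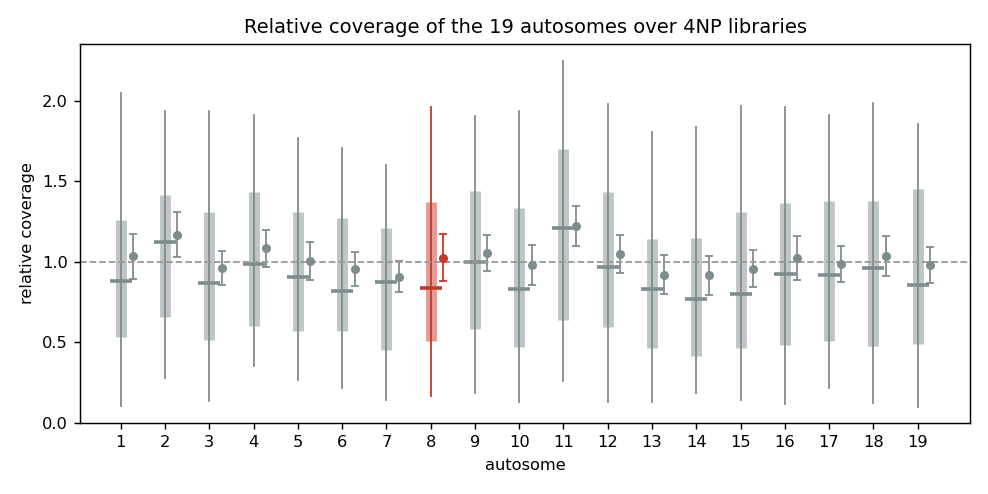
Relative coverage (vertical axis, no unit) of each autosome (horizontal axis) over 4NP libraries with at least 200 calls on the other autosomes. Thick bars span the 25th to 75th percentiles, thin lines the 10th to 90th, dashes are medians, and points with bars are means with 95% intervals; chromosome 8 (red) has a mean of 1.026 and a median of 0.836.

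Chromosome 8 varied between libraries more than its mean shows. The SD of its relative coverage was the largest of the 19 autosomes (0.879, with 0.598 for chromosome 7 to 0.861 for chromosome 1 among the others). This order is a description with no test, and it depends on how the highest libraries are treated. Without PI stained replicate 6, the library highest on chromosome 8, its SD was 0.782 and ranked 4 of 19. When each autosome was instead taken without its own highest library, chromosome 8 ranked 1, with 0.756 for chromosome 2 next. The range from the 10th to the 90th percentile was 0.169 to 1.964 for chromosome 8 and the wider 0.103 to 2.05 for chromosome 1. Relative coverage was below 0.1 in 13 libraries, below 0.5 in 35 and above 2 in 14. Between 6 and 15 libraries were below 0.1 for the other autosomes, and between 6 and 22 were above 2. Over the 186 libraries, chromosome 8 was the autosome with the highest coverage in 9. Counts for the other autosomes ran from 6 to 23.

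Several libraries with many calls held almost nothing of chromosome 8. Replicate 3 of the 3 µl proteinase K libraries had 7104 calls on the other autosomes and 7 on chromosome 8, where equal coverage would give 399.9. Replicate 6 of the 4 µl libraries had 5833 calls elsewhere and 4 on chromosome 8. Replicate 7 of the 8 µl libraries had 5812 and 5, and replicate 8 of the SYBR Gold libraries titled stained had 4442 and 2. The 13 libraries below 0.1 had 52 calls on chromosome 8 together, of which 1 lay in the often called windows beside the gap, and 2 of them had none. The 13 libraries came from 8 title groups, and 6 of the 13 were proteinase K libraries labelled mdc. Libraries below 0.1 on the other autosomes were not counted by title group.

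Other libraries held a larger share of chromosome 8 than of the other autosomes. The highest relative coverage was 5.84, in replicate 6 of the PI stained libraries, with 882 calls on chromosome 8 and 2682 on the other autosomes. Its coverage of chromosome 8 was 26.8% (Wilson 95% interval 25.3% to 28.3%) against 4.58% elsewhere. Replicate 1 of the SYBR Gold libraries titled unstained followed with 5.69 (282 and 880 calls). Next were a PI stained library with 3.41, a 4 µl proteinase K library with 3.095 and a library of 25 PCR cycles with 3.00. The largest share of the chromosome was 32.7% (31.1% to 34.3%), in replicate 4 of the 4 µl libraries, where relative coverage was 1.98.

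Libraries with none or most of the chromosome were counted over all 186 libraries. Chromosome 8 had no call in 16 of them (8.6%, as a percent of libraries), which was 0.0299 percentage points above the mean of the other autosomes (two-sided sign-flip permutation p = 1, adjusted p = 1). Over the 19 autosomes 3 passed this test (15.8%). The 16 libraries had few calls in all. Their median was 12 calls on the other autosomes, and 14 of them had under 200. The exceptions were replicate 4 of the 8 µl proteinase K libraries, with 1500 calls elsewhere, and replicate 2 of the SYBR Gold libraries titled unstained, with 217. For a count of 0 in 3294 windows, the Wilson interval reaches up to 0.1165%. These windows include 174 with over 50% undetermined bases. At least 50% of the chromosome was called in 0 libraries. Among the other autosomes only chromosome 13 reached this share, in 1 library. The test of this share could therefore not pass for any of the 19 autosomes (0% passed), and it decides nothing. At least 30% was called in 2 libraries for chromosome 8, and in 0 to 4 for the others.

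Autosomes of nearly the same length gave a closer comparison. Chromosome 10 has 3250 windows, chromosome 14 has 3130 and chromosome 9 has 3102. Relative coverage of chromosome 8 exceeded that of chromosome 14 by 0.108 (95% interval -0.0726 to 0.289) and that of chromosome 10 by 0.0475 (-0.148 to 0.243). Against chromosome 9 the difference was -0.0228 (-0.217 to 0.171). Chromosome 8 lacked any call in 16 libraries, chromosome 10 in 19, chromosome 14 in 14 and chromosome 9 in 9. Of 12 sign-flip permutation tests against these 3 chromosomes none passed, each with an adjusted p = 1. The smallest raw p was 0.0921, for libraries without a call on chromosome 8 or 9. The 3 of these 12 tests that took libraries with at least 50% called had no library to compare and could not pass.

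Calls along chromosome 8 came in short runs. Over the 186 libraries, its 30772 calls formed 17026 runs of adjacent windows, of which 64.6% were single windows, with a mean of 1.81 windows. The mean over the other autosomes was 1.79. In the 108 libraries with at least 20 calls on chromosome 8, the mean run was 1.635 ± 0.617 windows (SD), against 1.665 ± 0.622 on the other autosomes of the same libraries. The difference of -0.0302 (SE 0.0239) did not pass a two-sided sign-flip permutation test (p = 0.219, adjusted p = 0.280). Over the 19 autosomes 5 passed (26.3%), and the difference was below 0 for each of the 19. The longest run on chromosome 8 had 39 windows, or 1.56 Mb, at chr8:97840001-99400000 in replicate 4 of the 4 µl proteinase K libraries. Among the other autosomes the longest runs ranged from 27 windows on chromosome 19 to 79 on chromosome 1.

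The calls were spread along the chromosome with gaps. Chromosome 8 was cut every 10 Mb into 14 blocks, of which the last, chr8:130000001-131738871, is shorter. In the 75 libraries with at least 100 calls on chromosome 8, the fullest block held a median of 18.2% of the calls, with a range from 11.7% to 72.6%. At least 1 block had no call in 53 of these libraries, and up to 8 blocks were empty. On chromosome 10, with 13 blocks, the fullest block held a median of 18.8% in 70 libraries and 38 of them had an empty block. Chromosome 10 has no short last block, so the counts of libraries with an empty block are not like for like. These shares were not tested. Over all 186 libraries, the block with the most calls was chr8:90000001-100000000, with 6.14% of its windows called (SE 0.732 over libraries), and the lowest was chr8:30000001-40000000, with 4.42% (SE 0.599). The highest block holds the genes of the Iroquois homeobox cluster, Sall1 and Rbl2.

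**Figure D2:**
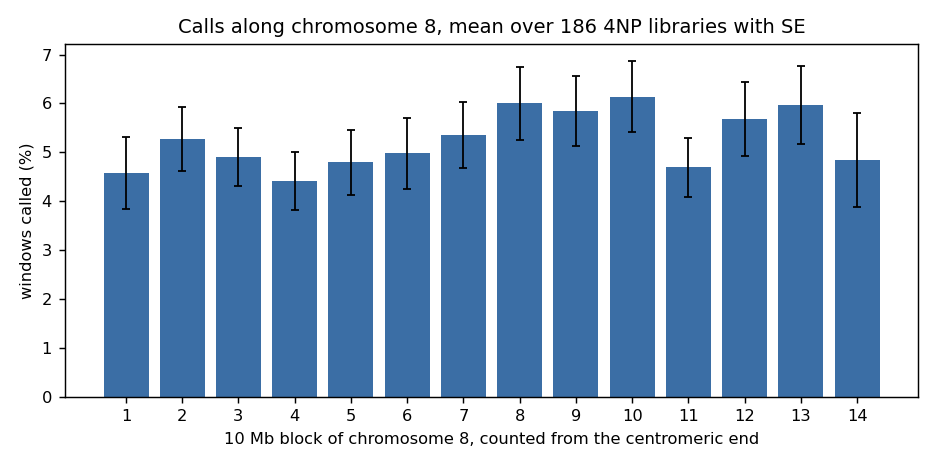
Percent of windows called (vertical axis) in each block of 10 Mb of chromosome 8 (horizontal axis, counted from the centromeric end), as the mean over 186 4NP libraries with SE over libraries. The last block is shorter, with 44 windows. Windows with over 50% undetermined bases were left out, and the bars run from 4.42% in block 4 to 6.14% in block 10.

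Windows with more G and C bases were called more often, on chromosome 8 as elsewhere. GC content was 42.4% on chromosome 8 and 41.9% on the other autosomes. In windows of the lowest GC quintile, 4.60% ± 0.526 (SE over 186 libraries) of chromosome 8 windows were called, against 4.25% ± 0.362 elsewhere. In the highest quintile the values were 5.84% ± 0.591 and 5.60% ± 0.461. The differences ran from 0.245 to 0.552 percentage points over the 5 quintiles, with SE from 0.352 to 0.419, so each was under 2 SE. Across the 3120 chromosome 8 windows with at most 50% undetermined bases, Spearman's rho between GC content and the number of libraries was 0.265, and over 56743 windows of the other autosomes it was 0.276. These windows share libraries and neighbours, so no p is given. Chromosome 8 has 8.21 protein-coding genes per Mb and ranks 9 of 19 by this density. Its 742 windows with a protein-coding gene start were called in a median of 10.5 libraries and the 2378 others in 9, with GC contents of 45.4% and 41.4%. The part of GC content in this difference was not tested.

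Genes were read at the window over their start. The lists were chosen with earlier results of these data known, and they are described by counts only. The 3120 chromosome 8 windows had a median of 10 libraries, and 38.9% of them were above it. Of 10 genes of pluripotency and early development, 7 were above that median and 1 below, with a median of 12 libraries. Ctcf, which encodes the zinc finger protein that marks domain boundaries, was called in 17 libraries (9.14%, Wilson 95% interval 5.79% to 14.2%). Cdh1, the gene of the adhesion molecule E-cadherin, was called in 16 libraries. Smad1, a mediator of bone morphogenetic protein signals, and Rbl2, a relative of the retinoblastoma gene, were each called in 14. Junb, a component of the AP-1 transcription factor, was called in 13. Klf2, a transcription factor of the ground state, and Sall1, a zinc finger gene, were called in 11 each. Zfp42, which encodes the stem cell marker Rex1, and E2f4, a cell cycle regulator, were at the median with 10 libraries. Fgfr1, a receptor for fibroblast growth factors, was below it with 8.

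The developmental regulators lay around the median. Of 7 genes, 3 were above and 4 below, with a median of 9 libraries. Irx3, Irx5 and Irx6, homeobox genes of a single cluster, were called in 12, 7 and 9 libraries. Foxc2 and Foxl1 share a window, which was called in 11. The window of Foxf1, annotated as Foxf1a, lies directly before it and was called in 7. The bHLH gene Hand2, needed in heart and limb, was called in 9. The start windows of these genes are rich in GC, with a median of 50.1%.

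The starts of the long genes had the lowest median of the 3 lists. Of 10, 2 were above the median and 7 below, and the median was 7.5 libraries. Wwox, a gene of 913 kb at a fragile site, was called at its start in 3 libraries, or 1.61% (0.55% to 4.63%). The start of Cdh8 was called in 5, those of Cdh11 and Sgcz in 6 and that of Dlc1 in 7. Palld, with 13, and Cdh13, with 12, were the 2 above the median. Over their whole length these genes were nearer to the rest, with a median of 9.32 libraries per window. Csmd1 covers 42 windows over 1643 kb, of which at least 1 was called in 56 libraries. At least 50% of its windows were called in 1 library and all of them in 0. Cdh13 had at least 50% of its 27 windows called in 9 libraries. The median GC content of the start windows was 41.8% for the long genes and 47.4% for the pluripotency genes, and its part in the difference between lists was not tested. A gene start called in 10 of 186 libraries has an interval from 2.95% to 9.61%, so most neighbours in these orders cannot be told apart.

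**Figure D3:**
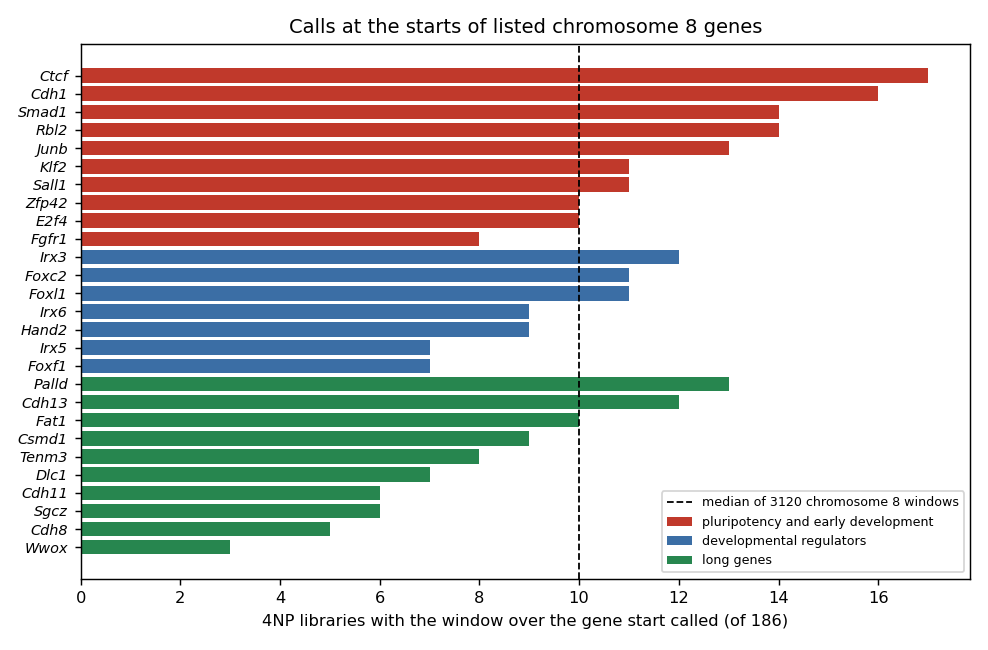
Number of 4NP libraries, of 186, in which the window over the start of each listed chromosome 8 gene was called (horizontal axis), for the genes on the vertical axis coloured by list. The dashed line is the median of 3120 chromosome 8 windows, 10 libraries; bars run from 3 for Wwox to 17 for Ctcf.

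Pairs of neighbouring listed genes, except Irx3 and Irx5, shared more libraries than the product of their call rates gives. Cdh1 and Ctcf lie 0.96 Mb apart and were called together in 7 libraries, where the product of their call rates gives 1.46. Irx5 and Irx6, 280 kb apart, shared 3 libraries, with 0.339 from the product, and Foxf1 and Foxc2 in adjacent windows shared 3, with 0.414. Irx3 and Irx5, 560 kb apart, shared 0 libraries, with 0.452 from the product, and a count of 0 against so low a product shows no deficit. Sall1 and Rbl2, 2 Mb apart, shared 2, with 0.828. Counts this small carry a wide counting error, and libraries with many calls raise the shared count of any pair. Gene pairs far apart were not counted, so the part of distance in these counts was not tested.

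Co-segregation of all chromosome 8 windows fell with distance as on the other autosomes. Windows 40 kb apart were both called in 2.24% of libraries on average, against a mean of 2.08% over the other autosomes (1.78% to 2.55%). At 1 Mb the value was 1.31% (0.968% to 1.46% elsewhere) and at 10 Mb it was 0.788% (0.575% to 0.940%). From 10 to 80 Mb it stayed between 0.730% and 0.788%.

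Linkage took the call rates into account. The mean normalized linkage disequilibrium (D′) of chromosome 8 windows at each distance was taken, and from it the mean D′ of 200000 randomly drawn pairs, each of a chromosome 8 window with a window of another autosome, was subtracted. This reference was -0.247 over the 186 libraries. The excess of chromosome 8 was 0.716 at 40 kb (jackknife SE 0.0414), 0.547 at 400 kb (SE 0.0355), 0.456 at 1 Mb (SE 0.0358) and 0.272 at 4 Mb (SE 0.0413). It was 0.191 at 10 Mb (SE 0.0405) and 0.173 at 80 Mb (SE 0.0572). At these distances it remained more than 2 SE above the level between chromosomes. The excess of chromosome 8 minus the mean of the other autosomes was -0.0074 at 40 kb (SE 0.0225), 0.00634 at 400 kb (SE 0.0201) and 0.0143 at 4 Mb (SE 0.0373). At 80 Mb it was 0.0551 (SE 0.0595), where chromosome 8 ranked 3 of 18. At each of the 11 distances the difference was under 1 SE, and 0% of the autosomes differed from the others by more than 2 SE at any of them.

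Within both PI groups linkage fell from 40 kb to 4 Mb. In the 21 PI stained libraries the excess was 0.944 at 40 kb (SE 0.0633), 0.729 at 400 kb (SE 0.0737) and 0.302 at 4 Mb (SE 0.119). In the 21 PI stained and frozen libraries it was 0.817 (SE 0.0320), 0.512 (SE 0.120) and 0.255 (SE 0.120). Chromosome 8 minus the other autosomes was within 1 SE at all 11 distances in both groups, where between 0% and 10.5% of the autosomes were beyond 2 SE at a distance (5.26% at some, 5.56% and 5.88% at 80 Mb). With windows called in at least 1 library, however, the frozen libraries gave a difference of -0.122 at 4 Mb (SE 0.0558), which is beyond 2 SE and of the opposite sign. In the frozen libraries 148 window pairs entered at 4 Mb, against 1475 in the unfrozen ones. In the full collection, with 34 libraries, 77 pairs entered at 40 kb and the excess was 0.614 (SE 0.206). From 80 kb to 4 Mb it lay between 0.406 and 0.530 with no steady fall, and it was 0.476 at 4 Mb (SE 0.0844). The difference from the other autosomes reached 1.8 SE at 4 Mb (0.270, SE 0.150), on 29 pairs and against 6 autosomes with enough pairs, and at most 8.33% of the autosomes were beyond 2 SE at a distance. The crystal violet and the SYBR Gold libraries titled stained had fewer than 20 chromosome 8 pairs at every distance.

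**Figure D4:**
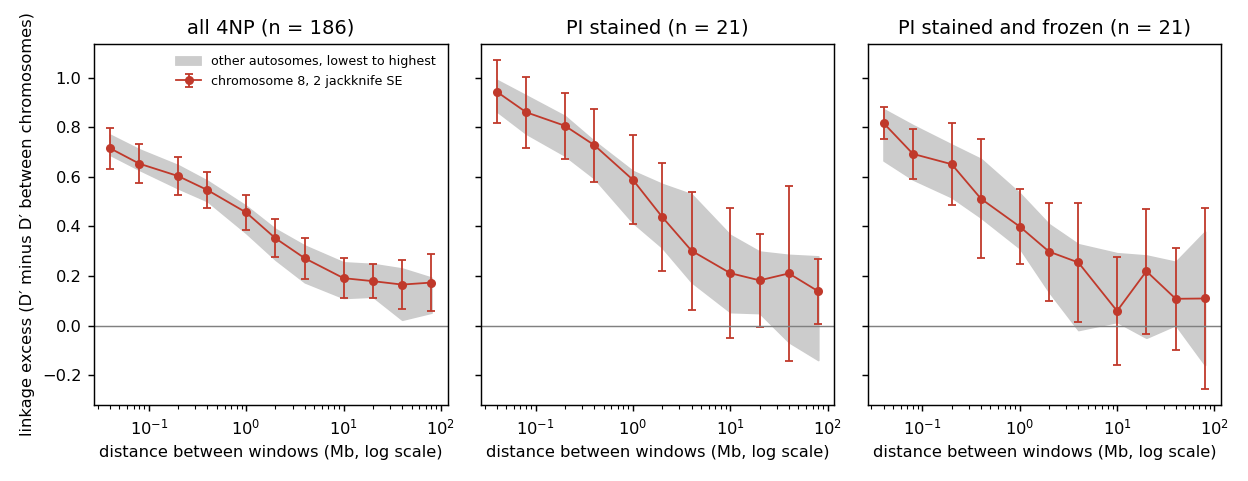
Linkage excess (vertical axis, mean D′ at a distance minus mean D′ between chromosomes) against the distance between windows (horizontal axis, Mb, log scale) in all 186 4NP libraries and in each PI group. Red points are chromosome 8 with 2 jackknife SE, and the grey band spans the other autosomes; chromosome 8 lies at 0.716 at 40 kb in all libraries, inside the band.

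Title groups were compared by the relative coverage of chromosome 8 to ask whether handling changed its recovery. PI stained libraries had values from 0.279 to 5.84 with a median of 0.850, and PI stained and frozen libraries had values from 0.0260 to 1.54 with a median of 0.706. The groups overlapped, and the 4 highest values were all from unfrozen libraries. The means were 1.46 ± 1.39 (SD, n = 18) and 0.716 ± 0.446 (SD, n = 20), a difference of 0.745. This had a raw p of 0.0147 in a two-sided permutation test and did not pass after adjustment (adjusted p = 0.404 over 114 tests). Without replicate 6 of the stained libraries the difference was 0.488 (raw permutation p = 0.0319). The difference in medians was 0.144 (permutation p = 0.384). Coverage of the other autosomes also differed between these libraries, with 9.93% ± 6.20 unfrozen and 5.49% ± 5.19 frozen, and its part in the result was not tested. None of the autosomes passed in this comparison (0%), and 4 of 19 had a raw p below 0.05.

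The other comparisons gave smaller or less certain differences. Crystal violet libraries had 0.910 ± 0.348 (SD, n = 15) and unstained libraries of the same test 0.829 ± 0.636 (SD, n = 5), with values of 0.106, 0.502, 0.774, 0.946 and 1.81 (permutation p = 0.734, adjusted p = 0.938). Leaving out single libraries moved the difference from 0.0812 to between -0.0995 and 0.328, with the highest value without unstained replicate 3. It was below 0 without replicate 4 (-0.00037) and without replicate 5 (-0.0995). Over all libraries of these groups, 0.570% ± 0.191 (n = 16) of the windows of the other autosomes were called with crystal violet and 8.21% ± 5.63 (n = 5) without stain. The part of this gap in the result was not tested. Eosin in ethanol gave 1.31 ± 0.476 and eosin in water 1.22 ± 0.638 (n = 8 each, exact permutation p = 0.747, adjusted p = 0.938). Leaving out single libraries moved this difference from 0.0907 to between -0.0296 and 0.237, with 1 change of sign. Values of both eosin groups lay between 0.381 and 2.25.

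Recovery of chromosome 8 varied widely within the proteinase K groups. Libraries with 1 µl labelled csc had 0.334, 0.391, 0.808, 0.845, 1.225, 2.21 and 2.23, with a mean of 1.149 ± 0.790 (SD, n = 7). None of them was below 0.1. Of the libraries labelled mdc, those with 3 µl had 0.00973, 0.0175, 0.724, 0.885, 0.962, 1.02 and 1.30, with a mean of 0.702 ± 0.501 (SD, n = 7). Libraries with 4 µl had 0.0122, 0.271, 0.278, 0.954, 1.099, 1.98 and 3.095, with a mean of 1.098 ± 1.104 (SD, n = 7). Libraries with 8 µl had 0, 0.0127, 0.0153, 0.626 and 2.13, with a mean of 0.556 ± 0.919 (SD, n = 5). The 3, 4 and 8 µl groups each had libraries below 0.1, with 3 of 5 at 8 µl, and libraries above 1. The single 2 µl library had 2.001, and the 1 µl mdc libraries had too few calls for a ratio. Exact permutation tests gave p = 0.420 for 3 against 4 µl, p = 0.746 for 3 against 8 µl and p = 0.403 for 4 against 8 µl, with an adjusted p = 0.938 for each. Leaving out single libraries moved these differences widely. They ran from -0.577 to -0.0633, from 0.00652 to 0.539 and from 0.209 to 0.935, in the same order.

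The SYBR Gold groups were not tested, since a minimum of 3 ratios per group was set and the libraries titled unstained kept 2, 0 and 5.69. Those titled stained had 0.793 ± 0.543 (SD, n = 13). The full collection had 0.878 ± 0.454 (SD, n = 9). Of the 14 title groups with at least 3 ratios, 6 had a mean above 1 and 8 below. Over the 6 comparisons and 19 autosomes, 0 of 114 permutation tests passed, and 11 had a raw p below 0.05. No plate column, read from the well names, held libraries of both groups in any of these comparisons, and the effects of group and plate column cannot be told apart. The labels name no separate cultures, so p-values measure the spread between these libraries, which may be technical.

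**Figure D5:**
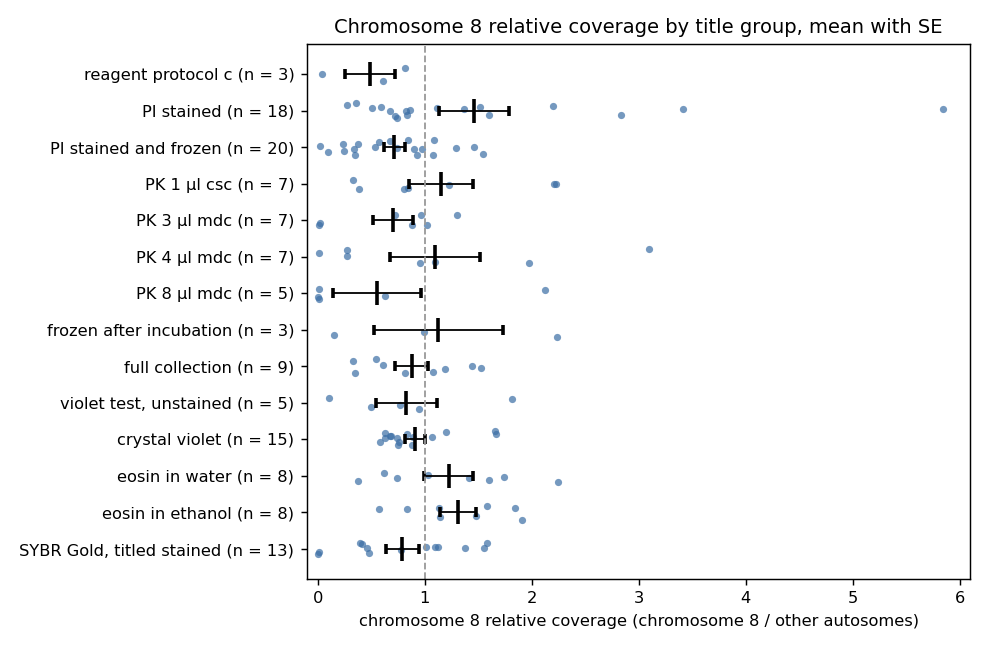
Relative coverage of chromosome 8 (horizontal axis, no unit) in each 4NP library with at least 200 calls on the other autosomes, for title groups with at least 3 such libraries (vertical axis); black marks are means with SE. Values run from 0 to 5.84, and 8 of the 14 group means lie below 1.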

How the data were processed

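Per the study's methods, the authors mapped reads to mm9 (Bowtie2 2.1), filtered PCR duplicates (Samtools) and used GAMtools to call windows of 40 kb, with 4 reads as the threshold in every library. In the deposited table each window is 0 or 1 in each library. Read numbers are not in them, so sequencing depth is unknown and the number of called windows stands in for it. Uniqueness filters on alignments are not given in the sources used here.

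Groups were taken from sample titles. Chromosome 8, the gene lists and the tests were chosen with earlier results of these data known. Ratios needed 200 calls on the other autosomes and run lengths 20 calls on the chromosome. Sign-flip and permutation tests were two-sided with 100000 resamples, or exact up to 5000000 splits, with Benjamini-Hochberg adjustment over 19 autosomes, 12 neighbour tests or 114 group tests at a threshold of 0.05. Linkage used windows called in at least 2 libraries, at least 20 pairs and a jackknife over libraries, with 2 SE as the threshold. Genes came from GENCODE M1 on NCBIM37, whose autosome lengths equal the ends of the table. The listed genes named are all members of 3 lists. The tests were tested on simulated data. Python 3.11.15, numpy 2.4.6, pandas 2.3.3, SciPy 1.17.1 and matplotlib 3.10.9 were used. Alternatives changed the minimum of calls, the reference, the windows, the linkage measure and the libraries kept.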

Additional observations from a re-analysis of the deposited data

Results flagged for a closer look

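In the full collection, water control replicate 4 had 3.37% of chromosome 8 called, far above the other 5 water controls of that experiment, which lay between 0.0304% and 0.516%. The gap to the nearest control was 0.8545 of the whole range (n = 6). Of the 9 groups of 4 to 10 libraries looked at, this was the 1 that stood out in this way, and chance flags about 1 in 20 groups.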

How the results depend on the processing

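The mean relative coverage of chromosome 8 was between 1.018 and 1.102 with other minimums of calls, pooled calls, other sets of windows or an expectation from GC content, and none of these passed the test. Divided by the median of the other autosomes it was 1.324 (adjusted permutation p = 0.0527), where the mean over all autosomes was 1.271. Leaving out 1 experiment at a time gave 0.9954 to 1.048, and 0.9954, without the eosin test, was the value below 1.

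As co-segregation over the product of call rates, chromosome 8 minus the other autosomes changed sign in all 4NP libraries at 400 kb (-0.181) and 4 Mb (-0.2137), and in PI stained libraries at 40 kb (-0.2775), 400 kb (-0.1661) and 4 Mb (-0.1533). It also did so in PI stained and frozen libraries at 400 kb (0.1551) and in the full collection at 40 kb (0.5337). With windows called in at least 1 library, the PI stained and frozen difference at 4 Mb was -0.1218 (SE 0.0558), which passed the threshold of 2 SE in the opposite direction. With libraries of at least 600 calls, the full collection gave 0.01162 at 40 kb and -0.01781 at 400 kb. The other differences of this paragraph did not pass the threshold, and the cause was not tested.

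Leaving out each library in turn gave differences from 0.4875 to 0.8148 for PI stained against frozen and from -0.09952 to 0.3277 for crystal violet against unstained. They ran from -0.02962 to 0.2369 for eosin in ethanol against water. For proteinase K they ran from -0.5771 to -0.06326 (3 against 4 µl), 0.006518 to 0.5387 (3 against 8 µl) and 0.2089 to 0.9347 (4 against 8 µl). Alternatives added after seeing the data were the windows without the copied sequence, a low ratio in place of no call, run lengths in libraries with 20 calls on each autosome, the PI medians, the SD of relative coverage without the highest library and leaving out single libraries of groups with more than 5 ratios. Of the alternatives other than leaving out single libraries, 11 changed direction, of which 1 passed the threshold. None of the others crossed the threshold or changed sign, and the median run length and a minimum of 70% for mostly called gave a difference of 0. No paired analysis was possible because replicate numbers follow accession order and pair no libraries. Some small groups had too few window pairs for stricter linkage settings, and crystal violet had too few libraries with 600 calls.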

Other observations

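The 22 windows that the table lists as chromosome 8 sequence of unplaced order had 0 calls in the 186 4NP libraries and 0 in the 11 water controls.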
